A study of Ovis aries with 6 samples.

Results

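The integrin and laminin genes were taken from the deposited gene table by symbol, as every row named ITGA or ITGB followed by 1 or 2 letters or digits, or LAMA, LAMB or LAMC followed by 1 digit. There were 37 such genes among 24390, namely 12 laminin chains, 24 integrin chains and ITGBL1, which is named for its likeness to integrin beta chains and is not a subunit of the receptor. No row carried the symbol ITGA2B or ITGB3, so these integrin chains are missing here and from the shares of alpha and beta chains below. RNA was sequenced from perirenal adipose tissue, a fat depot that encases the kidney, in Merino sheep labelled pure-bred, wild type and without treatment. The 3 lambs were given an age of 80 days after birth, 89 days or 12 weeks in different labels, and were reared with their ewes until weaning. Lamb titles also include VEH, an abbreviation that no label explains. The 3 fetuses were taken at 132 days post conception, and term is 150 days. Each library came from 1 animal, so n = 3 in each stage throughout.

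Laminins are large cross-shaped proteins of basement membranes, the thin matrix sheets that surround adipocytes, muscle fibres, nerves and vessels and lie under epithelia. Each is assembled from an alpha, a beta and a gamma chain. Integrins are cell surface receptors made of an alpha and a beta chain, and they tie the matrix, or a counter-receptor on another cell, to the actin cytoskeleton. In fat, each mature adipocyte is wrapped in its own basement membrane, and vessels, stromal cells and leukocytes bring further chains.

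Of the 37 genes, 35 had enough counts to be tested, and 23 of these (65.7%) passed an adjusted p of 0.05, where 44.7% of all 13624 genes tested did. Higher in lambs were 12 members, against 22.0% of all genes. Lower in lambs were 11, against 22.7% of all genes. The median log2 difference, lamb minus fetal, was 0.36 over the 35 members and -0.01 over all genes tested, and the members lay between -2.81 (ITGA7) and 3.03 (ITGAD). All 3 lamb values were above all 3 fetal values for 14 members, where this held for 28.2% of all genes, and all below for 11, where this held for 29.5%. Past both the test and a 2-fold difference were 14 members, against 22.9% of all genes. Among the integrins 12 of 23 passed, 7 higher and 5 lower. Adjusted p-values are from edgeR's quasi-likelihood test on counts, with libraries scaled by TMM (a factor that sets aside genes with extreme differences), and values per library are CPM, counts scaled to a common library size after that adjustment.

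Scaling by library totals in place of TMM raised the median log2 difference of all genes by 0.47, and the share of called genes that were higher in lambs was 79.3%, where TMM gave 49.3%. The members were then 18 higher and 5 lower. ITGA2, ITGB8, LAMA3, LAMA5, LAMB2 and LAMB3 lost their call under it, and 0 called members changed direction in any of the 15 alternatives. Leaving out 1 library left between 7 and 12 members higher and between 5 and 10 lower. The count of lower members was 5 without lamb library 1, 7 without lamb library 2, 6 without fetal library 1 and 6 without fetal library 2, and the count of higher members was 7 without fetal library 2. The calls of 10 members held without any 1 library. These were ITGA7, ITGA9, ITGAE, ITGAL, ITGB1, ITGB5, ITGBL1, LAMA2, LAMA3 and LAMC1.

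**Figure D1:**
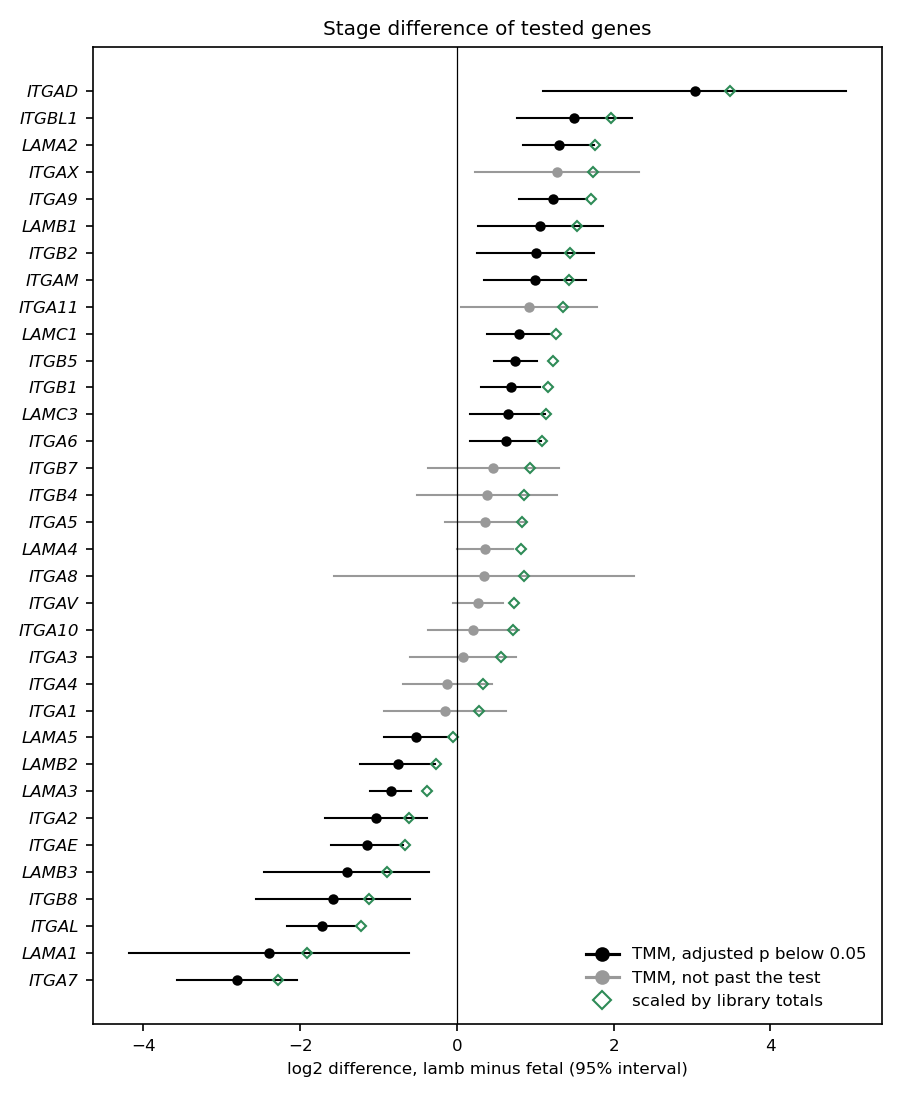
Log2 difference, lamb minus fetal, of tested members (circles) with 95% intervals (lines), black where the adjusted p was below 0.05 and grey where it was not; green diamonds give the same difference with scaling by library totals. ITGA7 lies lowest at -2.81 and ITGAD highest at 3.03, and the diamonds lie to the right of the circles throughout.

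Library totals lay between 15907128 and 17263780 counts in lambs and between 17535892 and 19150428 in fetuses, and mitochondrial genome genes took 7.37 to 8.29% of counts in lambs and 27.5 to 40.7% in fetuses. Spearman correlations across genes were 0.974 to 0.982 within a stage and 0.878 to 0.906 across stages. Of adipocyte markers, 7 of 12 tested were higher in lambs, against 22.0% of all genes, and 5 did not pass. Their sum was 28639 to 39615 CPM in lambs and 14947 to 18682 CPM in fetuses, much of it from ADIPOQ and FABP4. Among those that did not pass, PLIN1 averaged 1382 CPM in lambs and 1324 CPM in fetuses. PLIN4, also not past the test, averaged 907 CPM in lambs and 1185 CPM in fetuses. Kidney markers summed to between 3.06 and 6.10 CPM in lambs and between 3.16 and 5.80 CPM in fetuses. The tissue is a mix of cells, and in such samples more cells of a type and more RNA per cell cannot be told apart.

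LAMA2 rose while LAMA3 and LAMA5 fell, and LAMA4, the alpha chain with most reads per length at both stages, did not pass the test. LAMA4 encodes the alpha chain of vessel and adipocyte basement membranes (ENSOARG00000009580, chromosome 8, 25298969 to 25445606 on Oar v3.1). It had 843, 778 and 687 CPM in lambs and 556, 562 and 684 CPM in fetuses, so the lowest lamb library stood just above the highest fetal one. Its log2 difference was 0.36 ± 0.15 (SE, adjusted p = 0.0961), with a 95% interval of -0.0023 to 0.72. In the authors' mean RPKM, reads scaled by gene length and library size, LAMA4 made up 78.1% of the summed laminin alpha chains in lambs and 78.5% in fetuses. It passed with scaling by library totals and with the DESeq2 Wald test.

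LAMA2 encodes the alpha chain best known from muscle and peripheral nerve (ENSOARG00000013616, chromosome 8, 54371404 to 54895696). It had 249.7, 185 and 209 CPM in lambs, against 110.4, 77.9 and 73.9 CPM in fetuses. Every lamb value was above every fetal value, and the log2 difference was 1.30 ± 0.19 (adjusted p = 0.00153). By the authors' mean RPKM its share of the alpha chains was 14.1% in lambs and 7.86% in fetuses. Of the nerve and Schwann cell markers, 3 of 11 tested were higher in lambs, against 22.0% of all genes, and the rest did not pass. The sum of these markers was 192 to 281 CPM in lambs and at most 91.3 CPM in fetuses, much of it from S100B. SOX10 averaged 4.09 CPM in lambs and 3.72 CPM in fetuses. The part of nerve in the LAMA2 difference was not tested.

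LAMA5, an alpha chain of endothelium and epithelium (chromosome 13, 54200422 to 54247219), had 75.2, 113 and 92.8 CPM in lambs and 123, 123 and 156 CPM in fetuses. It was lower by a small margin, with a log2 difference of -0.52 ± 0.18 (adjusted p = 0.0486). The call was lost on leaving out any library other than lamb library 2, with log2 differences between -0.58 and -0.38 and adjusted p between 0.0687 and 0.159, the difference was -0.05 with library totals, and the call was lost in 10 of the 15 alternatives in all. The LAMA5 row overlaps that of the proteasome receptor gene ADRM1 by 1608 bp, and since strand use in counting is not stated, reads from the overlap may be of either gene.

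LAMA3, the alpha chain of the laminin that anchors stratified epithelia (ENSOARG00000007694, chromosome 23, 32998185 to 33254634), had 32.5, 31.8 and 29.6 CPM in lambs and 59.1, 50.3 and 59.1 CPM in fetuses. The stages did not overlap and replicates were close, with a log2 difference of -0.84 ± 0.11 (adjusted p = 8.99e-04). With library totals the LAMA3 difference was -0.38 (adjusted p = 0.12). LAMA1, an alpha chain of early embryonic basement membranes, was scarce, with 6, 25 and 5 counts in lambs and 101, 31 and 23 counts in fetuses. Its log2 difference was -2.39 ± 0.77 (adjusted p = 0.0368). The call was lost without lamb library 1, lamb library 3, fetal library 1 or fetal library 2, with values between -2.58 and -1.57 and adjusted p between 0.0615 and 0.134, and the value without lamb library 2 was -3.53.

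**Figure D2:**
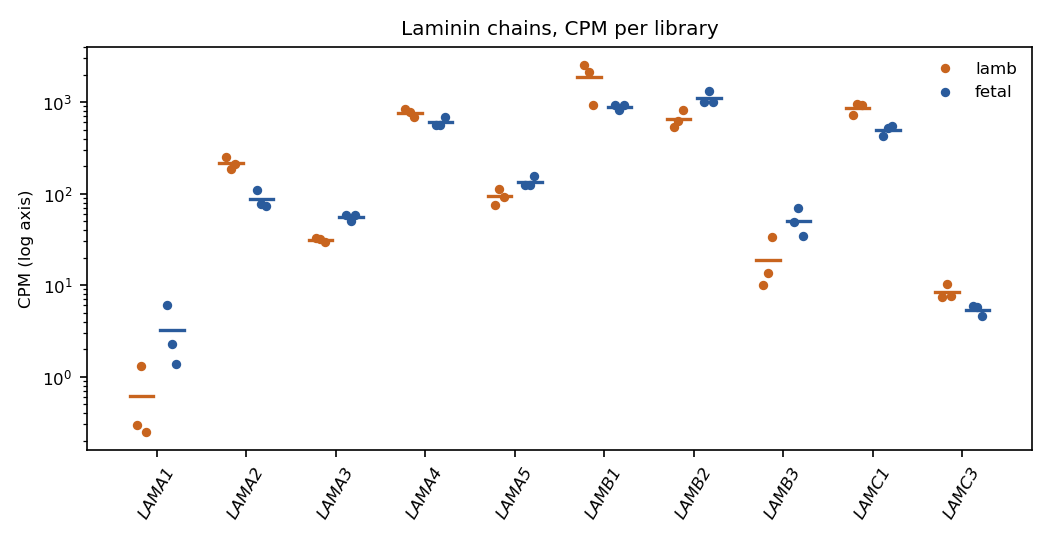
CPM per library on a log axis for tested laminin chains, lamb values on the left and fetal values on the right of each pair, with points for libraries and bars for means. LAMB1 in lamb library 3 (924 CPM) stands among the fetal values, while LAMA2 and LAMC1 are separated by stage.

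The common beta chains moved in opposite directions. LAMB1, the beta chain of most laminins of early and vascular basement membranes (ENSOARG00000007228, chromosome 4, 48983437 to 49060031), had 2526, 2146 and 924 CPM in lambs, against 926, 813 and 935 CPM in fetuses. In lamb libraries 1 and 2 it was far above all fetuses, and in lamb library 3 it lay within the fetal range. Its mean was 1865 ± 837 CPM in lambs and 891 ± 68.1 CPM in fetuses (SD, n = 3 each), with a log2 difference of 1.07 ± 0.34 (adjusted p = 0.0365). The LAMB1 difference was 1.39 without lamb library 3 (adjusted p = 0.00153). The call was lost on leaving out any 1 of the other libraries, with values between 0.79 and 1.10 and adjusted p between 0.0822 and 0.115, and also with limma-voom.

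LAMB2, the beta chain of synaptic, glomerular and arterial laminins (ENSOARG00000014559, chromosome 19, 50828962 to 50841070), had 541, 629 and 813 CPM in lambs and 1011, 1335 and 1005 CPM in fetuses. The 3 lamb values were all below the 3 fetal values (log2 difference -0.76 ± 0.20, adjusted p = 0.0191). Lamb library 3, lowest of its stage for LAMB1, was the highest of its stage for LAMB2. The LAMB2 call was lost without lamb library 1, lamb library 2 or fetal library 2, with differences between -0.72 and -0.61 and adjusted p between 0.0551 and 0.0606, and with library totals the difference was -0.26. By the authors' mean RPKM, LAMB1 made up 73.1% of the laminin beta chains in lambs and 40.9% in fetuses. LAMB2 made up 25.7% in lambs and 54.5% in fetuses.

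Within each library the ratio of LAMB1 to LAMB2 counts does not depend on scaling. On the log2 scale it was 2.22, 1.77 and 0.18 in lambs and -0.13, -0.72 and -0.10 in fetuses, a difference of 1.71. The stages did not overlap, with a two-sided exact permutation p of 0.1, the smallest that 3 against 3 allows. Such ratios were taken for 13 pairs of members chosen with their values known, 9 pairs did not overlap between stages, and their p was 0.144 after Benjamini-Hochberg adjustment over the pairs. The ratio of LAMA2 to LAMA4 was -1.76, -2.07 and -1.71 in lambs and -2.33, -2.85 and -3.21 in fetuses. The ratio of LAMA5 to LAMA4 went the other way, at -3.49, -2.78 and -2.89 in lambs and -2.18, -2.19 and -2.14 in fetuses.

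LAMC1, the gamma chain shared by most laminins (ENSOARG00000019180, chromosome 12, 62163057 to 62283591), had 715, 955 and 937 CPM in lambs, against 429, 521 and 552 CPM in fetuses. All lamb values were above all fetal values, and the log2 difference was 0.80 ± 0.18 (adjusted p = 0.00825). It was 97.2% of the gamma chains in lambs and 95.2% in fetuses by the authors' mean RPKM. LAMC3, a gamma chain at low level in this tissue, had 7.51, 10.3 and 7.65 CPM in lambs and 5.92, 5.74 and 4.60 CPM in fetuses. Its log2 difference was 0.65 ± 0.20 (adjusted p = 0.0346), and the call was lost without lamb library 2 or any fetal library (differences between 0.49 and 0.71, adjusted p between 0.0617 and 0.114), and with upper quartile factors (0.59, adjusted p = 0.0505).

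LAMB3, whose product joins that of LAMA3 in the epithelial laminin, was lower in lambs. LAMB3 (ENSOARG00000013143, chromosome 12, 71807820 to 71847698) had 10.1, 13.6 and 33.4 CPM in lambs and 48.7, 69.0 and 34.1 CPM in fetuses. Lamb library 3 stood close to fetal library 3, and the log2 difference was -1.41 ± 0.45 (adjusted p = 0.037). The LAMB3 call was lost without lamb library 1, lamb library 2, fetal library 1 or fetal library 2, with differences between -1.44 and -1.10 (adjusted p between 0.0687 and 0.117). Without lamb library 3, the highest of its stage, LAMB3 was at -2.09. The LAMB3 row overlaps that of CAMK1G by 169 bp, and CAMK1G averaged 46 counts per library in lambs and 87 in fetuses.

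Markers of epithelium and urothelium were lower in lambs too, 14 of 15 tested, against 22.7% of all genes, and the other did not pass. Their sum was 9.49, 12.0 and 5.40 CPM in lambs and 259, 102 and 77.3 CPM in fetuses, highest in fetal library 1, where LAMA1 was also highest. LAMB3 was highest in fetal library 2. In lamb library 3, which had the most LAMB3 of its stage, the marker sum was the lowest of all 6 libraries, and EPCAM and UPK3A were at 0 counts in every lamb. The part of epithelial cells in the fetal levels was not tested. LAMB4, a little-studied beta chain, was at 0 counts in every lamb and at 2, 1 and 1 counts in fetuses, and was not tested. In the lambs, 0 counts leave room for a level of at most 0.156 CPM, for counting error only.

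**Figure D3:**
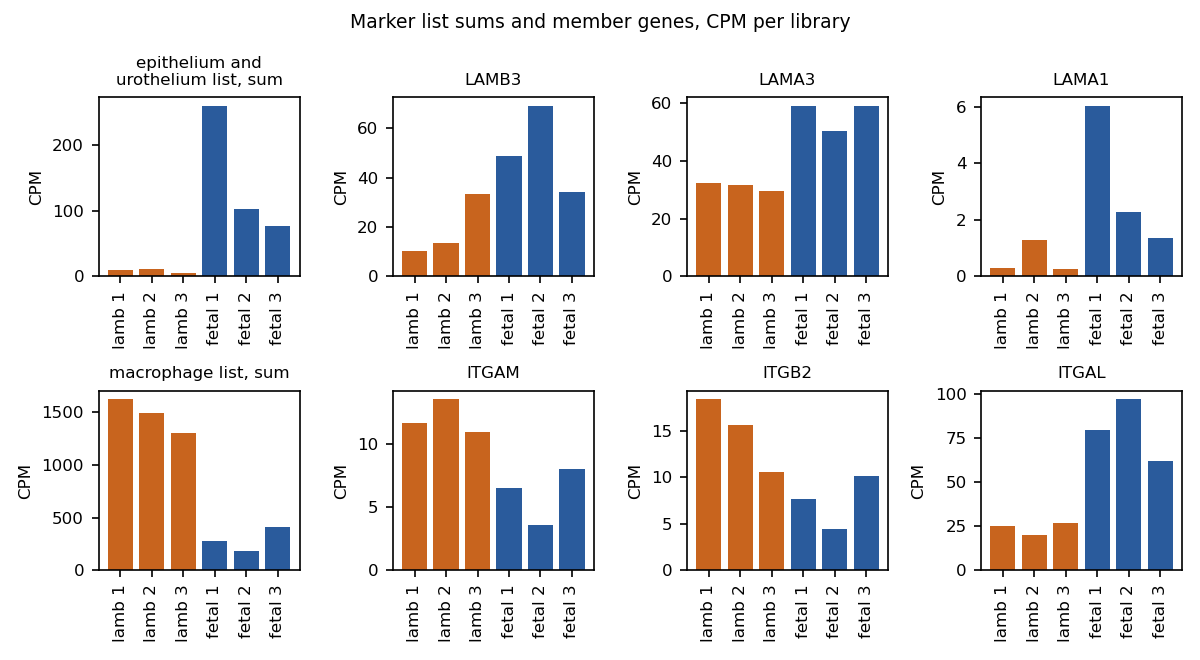
CPM per library, lambs in orange and fetuses in blue, for the summed epithelium and urothelium markers with LAMB3, LAMA3 and LAMA1 (upper row) and for the summed macrophage markers with ITGAM, ITGB2 and ITGAL (lower row). Epithelial markers peak at 259 CPM in fetal library 1, and ITGAL is high in fetuses where the macrophage sum is low.

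Among the laminin-binding integrin alpha chains, ITGA7 fell strongly, ITGA6 rose and ITGA3 did not pass the test. ITGA7, best known as the laminin receptor chain of skeletal and heart muscle (ENSOARG00000011427, chromosome 3, 163469104 to 163492706), had 155, 134 and 227 CPM in lambs, against 1221, 1636 and 753 CPM in fetuses. Its mean was 172 ± 48.4 CPM in lambs and 1204 ± 442 CPM in fetuses (SD, n = 3 each). The log2 difference was -2.81 ± 0.33 (adjusted p = 5.40e-04), a fetal level 6.99 times that of lambs, and it ranged from -3.06 to -2.29 over the alternatives. By the authors' mean RPKM, ITGA7 was 20.1% of all integrin alpha chains in lambs and 66.6% in fetuses.

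Of skeletal muscle markers, 3 of 5 tested were lower in lambs, against 22.7% of all genes, and 2 did not pass. The list summed to 8.75, 11.9 and 11.5 CPM in lambs and 130.5, 28.0 and 47.1 CPM in fetuses. Among the 5 tested, the myoglobin gene MB, the creatine kinase gene CKM and the troponin gene TNNI2 passed, and the actin gene ACTA1 and the titin gene TTN did not. ACTA1 had 1.04, 3.32 and 1.10 CPM in lambs and 32.4, 1.69 and 0.477 CPM in fetuses. TTN had 0.692, 0.571 and 0.550 CPM in lambs and 8.19, 0.515 and 0.358 CPM in fetuses. Both stood above all lambs in fetal library 1 only. The myosin gene MYH1 had 60, 0 and 1 counts in fetuses and the troponin gene TNNC2 had 50, 1 and 0. These 2 genes were too low to test. MB had 0.0988, 0.0519 and 0.1000 CPM in lambs and 6.46, 7.06 and 2.45 CPM in fetuses, with the fetal libraries in the same order as for ITGA7. CKM had 5.88, 7.21 and 9.05 CPM in lambs and 69.6, 17.1 and 42.9 CPM in fetuses, and both CKM and the muscle sum were lowest of the fetuses in library 2, which had the most ITGA7. The muscle regulators MYOD1 and PAX7 were at 0 counts in all 6 libraries, although the authors' mean RPKM of PAX7 was 1.53 in lambs and 1.47 in fetuses. Of 12 smooth muscle and pericyte markers tested, 2 were higher in lambs, 2 were lower and 8 did not pass. Of all genes tested, 22.0% were higher and 22.7% lower. That list summed to 2151 to 3525 CPM in lambs, much of it from MCAM, and to 1212 to 1417 CPM in fetuses. The part of muscle in the ITGA7 difference was not tested.

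ITGA6, a laminin receptor chain of epithelium, endothelium and stem cells (ENSOARG00000001187, chromosome 2, 136225512 to 136275286), had 461, 379 and 483 CPM in lambs and 217, 307 and 336 CPM in fetuses. The stages did not overlap, and the log2 difference was 0.62 ± 0.19 (adjusted p = 0.0335). The ITGA6 call was lost without lamb library 1, lamb library 3, fetal library 1 or fetal library 2, with differences between 0.45 and 0.67 and adjusted p between 0.0633 and 0.0939. In authors' mean RPKM, ITGA6 was at 56.7 in lambs and 28.3 in fetuses, where ITGA7 was at 45.2 in lambs and 242.5 in fetuses. ITGA3, a laminin receptor chain of epithelium, had 10.97, 18.2 and 8.45 CPM in lambs and 14.3, 11.3 and 10.0 CPM in fetuses, with a 95% interval of the log2 difference from -0.60 to 0.75.

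The count ratio of ITGA7 to ITGA6 changed most among the 13 pairs after that of ITGA7 to ITGB1. On the log2 scale it was -1.57, -1.49 and -1.09 in lambs and 2.49, 2.41 and 1.16 in fetuses, a difference of -3.41. In each lamb ITGA6 had more reads than ITGA7, and in each fetus it had fewer. Against ITGB1, the partner chain of both, ITGA7 was at -2.38, -2.92 and -2.28 in lambs and 0.92, 1.43 and 0.40 in fetuses. ITGA6 against ITGB1 overlapped between stages, at -0.81, -1.43 and -1.19 in lambs and -1.57, -0.99 and -0.76 in fetuses.

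**Figure D4:**
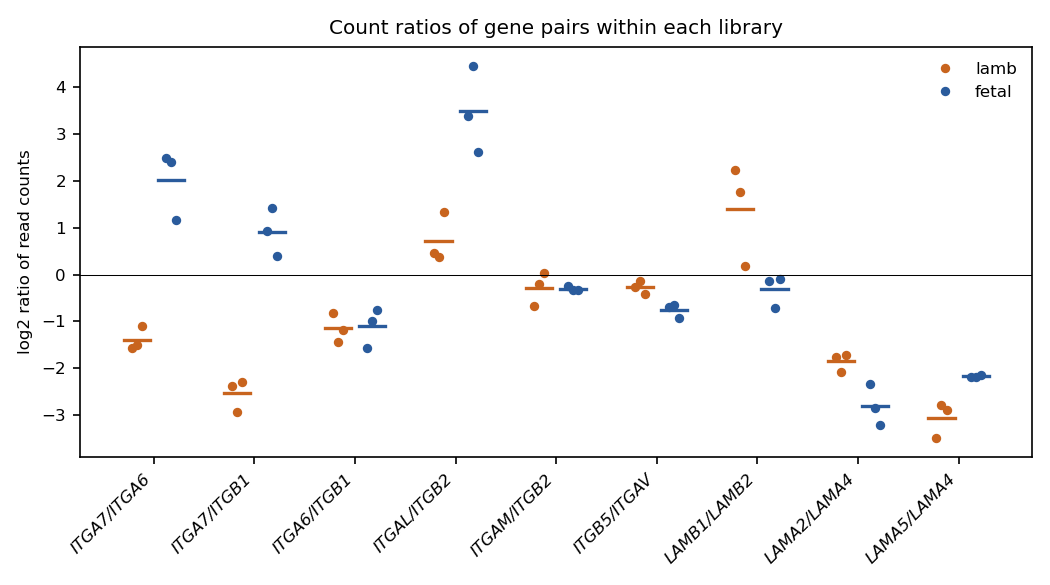
Log2 ratios of read counts for 9 gene pairs within each library, lambs on the left and fetuses on the right of each pair, with points for libraries and bars for means. ITGA7 to ITGA6 is below 0 in the 3 lambs and above 0 in the 3 fetuses, while ITGA6 to ITGB1 and ITGAM to ITGB2 overlap.

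Among the collagen-binding alpha chains ITGA2 was lower in lambs, and ITGA1, ITGA10 and ITGA11 did not pass. ITGA2, a collagen receptor chain of platelets and epithelium (ENSOARG00000008212, chromosome 16, 26027537 to 26136676), had 18.6, 22.9 and 25.8 CPM in lambs and 41.0, 30.2 and 66.5 CPM in fetuses. All lamb values were below all fetal ones, with a log2 difference of -1.04 ± 0.28 (adjusted p = 0.0195). It was -0.67 without fetal library 3 (adjusted p = 0.0383), and the call was lost without lamb library 1 or lamb library 2 (differences between -1.05 and -0.91, adjusted p between 0.0516 and 0.069) and with library totals. Its neighbour ITGA1, 25140 bp away and a collagen receptor chain of mesenchymal cells, had 57.1, 22.1 and 46.2 CPM in lambs and 46.7, 34.8 and 58.0 CPM in fetuses. The stages overlapped, and the sign of the ITGA1 difference (-0.15) turned in 3 alternatives.

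ITGA11, a collagen receptor chain of fibroblasts, had 16.7, 16.4 and 17.4 CPM in lambs and 14.6, 4.27 and 7.76 CPM in fetuses. Lambs were nearly alike and above all fetuses, but fetuses were spread, and the test was not passed (log2 difference 0.92 ± 0.37, adjusted p = 0.0813). Without fetal library 1 it was at 1.47 (adjusted p = 0.00629). ITGA10, known from cartilage, had 9.78, 9.96 and 7.198 CPM in lambs and 7.89, 10.0 and 5.49 CPM in fetuses, which overlap.

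ITGAV, ITGA5 and ITGA8, alpha chains that bind the RGD motif of fibronectin and its like, did not pass the test. ITGAV, which pairs with several beta chains, had 194, 157 and 204 CPM in lambs and 157, 145 and 158 CPM in fetuses (log2 difference 0.27, 95% interval -0.05 to 0.58). ITGA5, the main fibronectin receptor chain, had 76.8, 140.0 and 130 CPM in lambs and 86.3, 89.8 and 94.4 CPM in fetuses. Lamb library 1 lay below all fetuses there, and without it the ITGA5 difference was 0.58 (adjusted p = 0.00987), against 0.36 with it (adjusted p = 0.217). ITGA8, a nephronectin receptor chain, was at 2.52, 11.9 and 1.20 CPM in lambs and 6.64, 3.97 and 1.67 CPM in fetuses, too spread to give a direction.

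ITGA9 rose, whereas its relative ITGA4 did not pass the test. ITGA9, a receptor chain for tenascin and other ligands (ENSOARG00000000498, chromosome 19, 10846322 to 11213039), had 44.1, 72.6 and 51.1 CPM in lambs, against 24.3, 23.8 and 23.5 CPM in fetuses. The fetal values were almost equal and all below the lambs (log2 difference 1.23 ± 0.19, adjusted p = 0.00163). ITGA4, a leukocyte receptor chain for VCAM1, had 5.83, 3.79 and 3.799 CPM in lambs and 4.84, 4.34 and 5.43 CPM in fetuses.

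**Figure D5:**
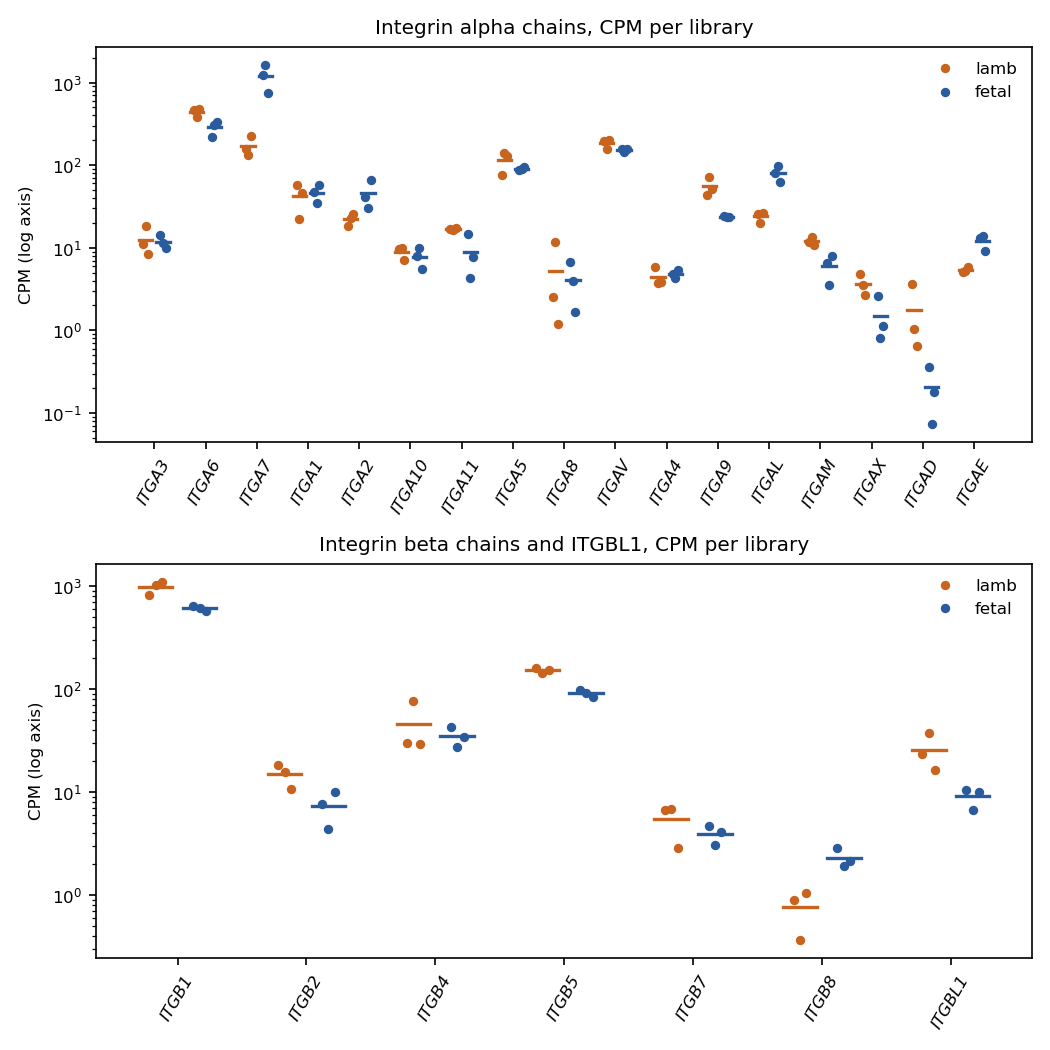
CPM per library on a log axis for the 17 integrin alpha chains (upper plot) and for 6 integrin beta chains and ITGBL1 (lower plot), lamb values on the left and fetal values on the right of each pair, with points for libraries and bars for means. ITGA7 is the highest alpha chain in fetuses at a mean of 1204 CPM, and ITGB1 the highest beta chain at both stages.

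The leukocyte alpha chains split. ITGAL and ITGAE were lower in lambs, ITGAM and ITGAD were higher, and ITGAX did not pass the test. ITGAL, the lymphocyte chain that binds ICAM proteins (ENSOARG00000006423, chromosome 24, 26679858 to 26721693), had 25.3, 20.1 and 26.6 CPM in lambs, against 79.9, 97.1 and 62.1 CPM in fetuses. The stages were well apart, with a log2 difference of -1.73 ± 0.19 (adjusted p = 4.10e-04) that lay between -1.88 and -1.23 over the alternatives. ITGAE, which binds E-cadherin (ENSOARG00000017553, chromosome 11, 24001621 to 24029937), had 5.09, 5.19 and 5.90 CPM in lambs and 13.1, 13.8 and 9.19 CPM in fetuses (log2 difference -1.15 ± 0.20, adjusted p = 0.00281). E-cadherin itself, CDH1, averaged 0.170 ± 0.158 CPM in lambs and 10.1 ± 5.85 CPM in fetuses. The ITGAE row overlaps that of the kinase gene GSG2 by 2199 bp, and GSG2 averaged under 1 count per library in either stage.

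ITGAM, the macrophage and neutrophil chain of complement receptor 3 (ENSOARG00000009000, chromosome 24, 27341076 to 27384550), had 11.6, 13.5 and 10.9 CPM in lambs and 6.46, 3.53 and 7.997 CPM in fetuses. All lamb values were above the fetal ones (log2 difference 0.99 ± 0.28, adjusted p = 0.0231). The ITGAM call was lost without lamb library 1, lamb library 2 or fetal library 1 (differences between 0.90 and 1.04, adjusted p between 0.0513 and 0.0659). ITGAX, a chain of macrophages and dendritic cells, had 4.79, 3.58 and 2.70 CPM in lambs and 2.57, 0.809 and 1.13 CPM in fetuses, and narrowly missed the threshold (log2 difference 1.28 ± 0.45, adjusted p = 0.0507). Without fetal library 1 ITGAX was at 1.90 (adjusted p = 0.0111), and it passed in 8 of the 15 alternatives.

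ITGAD, a relative found on tissue macrophages, had only 73, 20 and 13 counts in lambs and 6, 1 and 3 counts in fetuses. Its log2 difference of 3.03 ± 0.83 (adjusted p = 0.0203) was the largest rise of the group. Lamb library 1 held most of these counts, and without it the ITGAD difference was 1.97 (adjusted p = 0.0508). The call was also lost without fetal library 2 or fetal library 3 (adjusted p up to 0.0684) and with limma-voom. ITGAM, ITGAX and ITGAD lie side by side on chromosome 24 with gaps of 16017 and 27452 bp and no other gene between them. They are close in sequence, and since the treatment of reads with several placements is not stated, the split of reads among the 3 is uncertain.

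ITGB2, the beta chain shared by ITGAL, ITGAM, ITGAX and ITGAD (ENSOARG00000012367, chromosome 1, 262869672 to 262887497), had 18.4, 15.6 and 10.6 CPM in lambs, against 7.65, 4.41 and 10.1 CPM in fetuses. Lamb library 3 and fetal library 3 were nearly equal, and the log2 difference was 1.00 ± 0.32 (adjusted p = 0.0356). The ITGB2 call was lost without lamb library 1, lamb library 2, fetal library 1 or fetal library 2, with differences between 0.75 and 1.02 and adjusted p between 0.0791 and 0.11. ITGAL and ITGB2, partners in 1 receptor, moved in opposite directions. Their log2 count ratio was 0.46, 0.37 and 1.33 in lambs and 3.38, 4.46 and 2.62 in fetuses, while that of ITGAM to ITGB2 overlapped, at -0.66, -0.21 and 0.04 in lambs and -0.25, -0.32 and -0.33 in fetuses. In the authors' mean RPKM, ITGAL was at 7.06 in lambs and 15.5 in fetuses, and ITGB2 at 7.32 in lambs and 2.80 in fetuses.

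Macrophage markers were higher in lambs, 9 of 12 tested, against 22.0% of all genes, while the rest did not pass. The markers summed to between 1308 and 1623 CPM in lambs and between 185 and 412 CPM in fetuses, most of it in lambs from MRC1. CSF1R, another such marker, averaged 56.4 CPM in lambs and 50.1 CPM in fetuses and did not pass. Of T and NK cell markers, 2 of 12 tested were higher, against 22.0% of all genes, and the rest did not pass. Sums were 11.7 to 55.3 CPM in lambs and 13.6 to 22.5 CPM in fetuses. Of neutrophil markers 4 of 6 tested were lower, against 22.7% of all genes, and the rest did not pass. The neutrophil sums overlapped, at 9.00 to 25.9 CPM in lambs and 13.2 to 47.6 CPM in fetuses. LTF, among those not past the test, averaged 10.9 CPM in lambs and 4.15 CPM in fetuses. Of 9 B cell markers present only 3 had enough counts to test, and 2 of these were higher, against 22.0% of all genes. ITGAL, by contrast with the T and NK markers, was lower in lambs. The part of leukocyte numbers in these integrin values was not tested.

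Of the other tested beta chains ITGB1 and ITGB5 were higher in lambs, ITGB8 was lower, and ITGB4 and ITGB7 did not pass. ITGB1, the partner of most alpha chains (ENSOARG00000017638, chromosome 13, 18999482 to 19024014), had 809.7, 1019.8 and 1102 CPM in lambs, against 644, 609 and 570.5 CPM in fetuses. All lambs were above all fetuses, with a log2 difference of 0.69 ± 0.16 (adjusted p = 0.011). By the authors' mean RPKM, ITGB1 was 77.8% of the beta chains in lambs and 77.0% in fetuses. ITGB5, which pairs with ITGAV as a receptor for vitronectin and MFGE8 (ENSOARG00000020222, chromosome 1, 187475287 to 187581008), had 161, 142 and 153 CPM in lambs and 97.3, 92.0 and 82.7 CPM in fetuses. Its replicates were close and the stages apart (log2 difference 0.75 ± 0.12, adjusted p = 0.00206), and its ratio to ITGAV was higher in every lamb than in any fetus.

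ITGB8, a chain that with ITGAV activates latent TGF-beta (ENSOARG00000010027, chromosome 4, 29066166 to 29156173), was low throughout, with 18, 7 and 21 counts in lambs and 48, 26 and 36 counts in fetuses. The log2 difference was -1.58 ± 0.42 (adjusted p = 0.018), and leaving out fetal library 1 ended the call (-1.40, adjusted p = 0.063), as did library totals (-1.13). ITGB6, an epithelial chain with the same activity, had 0, 0 and 1 counts in lambs and 11, 4 and 3 counts in fetuses, most of them in fetal library 1, the library with the most epithelial markers. It was too low to test.

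ITGB4, the epithelial partner of ITGA6, had 30.0, 77.1 and 29.4 CPM in lambs and 43.2, 27.5 and 34.1 CPM in fetuses. Lamb library 2 alone stood high, and without it the difference was -0.23, against 0.38 with it (adjusted p = 0.446). ITGB7, the partner of ITGAE and ITGA4 on lymphocytes, had 6.77, 6.80 and 2.85 CPM in lambs and 4.72, 3.09 and 4.06 CPM in fetuses. It did not pass (log2 difference 0.46, adjusted p = 0.325), but did so without lamb library 3 (0.77, adjusted p = 0.0414). ITGBL1 (ENSOARG00000004848, chromosome 10, 77339045 to 77468115), a secreted protein rather than a receptor chain, had 23.2, 37.4 and 16.5 CPM in lambs, against 10.6, 6.69 and 9.91 CPM in fetuses. All lambs were above all fetuses, and the log2 difference was 1.498 ± 0.32 (adjusted p = 0.00674).

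Genes of the intracellular integrin adhesion complex were mostly higher in lambs. Of 31 tested, 21 rose, 1 fell and 9 missed the threshold, where 22.0% of all genes rose and 22.7% fell. The median log2 difference was 0.70, against -0.01 over all genes. With library totals the counts were 25 higher and 0 lower, and on leaving out 1 library between 15 and 20 were higher. FERMT2, a kindlin that activates integrins, averaged 564 ± 91.2 CPM in lambs and 140.4 ± 5.20 CPM in fetuses (log2 difference 2.01 ± 0.16, adjusted p = 1.17e-04). Zyxin, ZYX, rose by 1.64 ± 0.18 and the actin crosslinker ACTN4 by 1.53 ± 0.13. SHARPIN, which holds integrins inactive, was the member that fell (log2 difference -0.64 ± 0.14, adjusted p = 0.00743).

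Other basement membrane genes mostly missed the threshold. Of 19 tested, 4 rose, 1 fell and 14 missed the threshold (median 0.12). Of all 13624 genes tested, 22.0% rose, 22.7% fell and 7529 genes missed it. With library totals 10 of the list were higher. SMOC1 rose by 1.74 ± 0.20, SMOC2 by 1.33 ± 0.15 and netrin 4, NTN4, by 1.22 ± 0.19, while FREM1, of embryonic epithelial basement membranes, fell by 1.63 ± 0.44 (adjusted p = 0.0187). The FREM1 call did not hold in every leave-out, and 0 genes of this list were lower without lamb library 3 and without fetal library 1. COL4A1, the main type IV collagen chain, averaged 3584 ± 372 CPM in lambs and 3437 ± 324 CPM in fetuses and did not pass (95% interval of the log2 difference -0.33 to 0.46).

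Of 11 tested genes of non-integrin laminin receptors and their complex partners, 5 rose, 3 fell and 3 missed the threshold (median 0.90). Of all genes tested, 22.0% rose and 22.7% fell. Under library totals 8 of the list were higher and 2 lower. The sarcoglycan gene SGCD rose by 2.06 ± 0.26, the syndecan gene SDC2 by 1.99 ± 0.22 and SGCB by 1.20 ± 0.32. SDC1, the syndecan of epithelia, fell by 3.27 ± 0.39 (adjusted p = 5.54e-04). The dystroglycan gene DAG1 averaged 79.1 ± 13.1 CPM in lambs and 235 ± 15.2 CPM in fetuses. It fell by 1.57 ± 0.15 (adjusted p = 2.46e-04). Of 21 tested integrin ligands, 3 rose, 2 fell and 16 missed the threshold (median 0.12), where 22.0% of all genes rose and 22.7% fell. With library totals 7 ligands were higher. Lower were 5 ligands without fetal library 2, 4 with the DESeq2 Wald test and 1 with limma-voom. THBS1, thrombospondin 1, had 259, 753 and 171 CPM in lambs and 29.5, 28.1 and 31.2 CPM in fetuses (log2 difference 3.73 ± 0.54, adjusted p = 0.00133). FBN1, which encodes fibrillin 1, rose by 0.86 ± 0.21 and MFGE8 by 0.55 ± 0.14. CDH1, the ligand of ITGAE given above, fell by 5.85 ± 0.72 and belongs to the epithelial markers too.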

How the data were processed

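Per the submitters' labels and processing notes, the authors used CLC Genomics Workbench 7.0 with single-end reads and Ensembl gene models (release 74) on the Oar v3.1 build. Read filters, strand use and what was done with multiply placed reads were not given in the sources used here. The full deposited table gives raw read counts per gene and library, and mean RPKM per stage as the authors computed it. The 6 RPKM columns of single libraries were not used, because a header there repeats a sample's name, nor was a prefiltered table. RPKM means are the authors' values, without SD, and are quoted only for members with at least 1000 counts over the 6 libraries, where the RPKM ratio of the stages was 0.787 to 1.14 times the count ratio. No sequence of these genes was in the files used here.

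The count test was edgeR 4.0.16 in R 4.3.3 (filterByExpr, TMM, quasi-likelihood F test, no covariates), lamb minus fetal, with Benjamini-Hochberg adjustment over all 13624 genes tested and a threshold of 0.05. The SE is the log2 difference divided by the root of F. CPM uses TMM-adjusted library sizes. In simulated data of 13499 genes, the fit recovered 48% of those set to a 2-fold difference and 89% at 4-fold, with 8 false calls. Far fewer genes were set to differ there than were called in the real data, so these rates may not hold for the real fit. A gene that did not pass may still differ. Alternatives used limma 3.58.1 and DESeq2 1.42.0. Members are named one by one, except 1 that is counted in the totals and not reported here; from each pathway list up to 3 called genes with the largest change in the more common direction and up to 1 in the other were named, at 1 CPM or more. COL4A1, DAG1, MRC1, S100B and single marker genes were named after their values were seen. Members and lists were chosen with earlier results of these data known. Intervals and limits for counts of 0 (3 counts) cover counting error only.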

Additional observations from a re-analysis of the deposited data

How the results depend on the processing

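Over the 15 alternatives, 4798 to 7057 genes were called in all, against 6095 in the reported fit. Of the 23 called members, 9 kept their call in every alternative and 0 changed direction. With library totals 5 members were lower. On leaving out 1 library, 7 to 12 members were higher and 5 to 10 lower, and 4798 to 5654 genes were called in all. For the members named, the calls lost there are given in the report, and the cause was not tested. The members that changed sign were not called in any fit. ITGA1 was at 0.28 and ITGA4 at 0.34 with library totals, and ITGA8 at -0.11 with limma-voom. On leaving out 1 library, ITGA1 ranged from -0.44 to 0.15, ITGA3 from -0.29 to 0.30, ITGA8 from -1.13 to 0.89 and ITGB4 from -0.23 to 0.62. Labels number the replicates 1 to 3 in both stages, and same-numbered libraries had correlations of 0.0033, -0.12 and 0.046 between their deviations from the stage means, so the numbers were not taken to pair animals. With a replicate block 5353 genes were called in all, 10 members were higher and 8 lower, and ITGA8 was at -0.069. Among the calls lost with the block were those of ITGB2, LAMA5, LAMB1, LAMB3 and LAMC3 (adjusted p from 0.0505 to 0.0721), and ITGAX passed (adjusted p = 0.0267). Low counts limit ITGAD, ITGB6, ITGB8, LAMA1 and LAMB4.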
